A study of Bos taurus with 22 samples.

Results

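The miR-224, miR-452 and miR-3431 cluster consists of 3 bovine miRNAs, bta-miR-224, bta-miR-452 and bta-miR-3431, that lie on the same strand of chromosome X within one host gene. Its members were chosen by name and position, as the rows of the read count table with these names, and are 3 of the 844 rows (611 bovine miRNAs and 233 human homologues). This choice was made with earlier results of these data known, and the study lists all 3 as differentially expressed between the days compared here. Their calls and direction below are therefore not independent evidence. The study asked how miRNAs in the circulation change during pregnancy in cattle. Jugular plasma of 11 Holstein-Friesian heifers was sequenced on Day 60 of pregnancy and on Day 0, giving 22 small RNA libraries in a repeated-measures design. On Day 60 the heifers were pregnant after artificial insemination, and on Day 0, the day of insemination at a synchronised oestrus, the same heifers were not pregnant. All were in their second year of life and had never been inseminated before. No heifers that stayed non-pregnant until Day 60 were included in these libraries, so pregnancy and the time that passed between the samples cannot be told apart. In plasma, release of a miRNA from fewer cells and less release per cell cannot be told apart either. Levels here are relative to the other miRNA reads of a library, so they give no absolute amount in plasma.

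MiRNAs are short RNAs that guide silencing complexes to messenger RNAs through base pairing at the 5′ end of the miRNA, and those in plasma are carried in vesicles, lipoproteins or protein complexes. miRNAs encoded in an intron of a gene can be processed from the transcript of that host gene, and miRNAs that lie close together on one strand are often cut from one primary transcript. In human, miR-224 and miR-452 lie in an intron of GABRE, which encodes the epsilon subunit of the GABA-A receptor, a ligand-gated chloride channel. In mouse ovarian granulosa cells miR-224 is raised by TGF-β1 and targets Smad4, and in human it is known for high levels in hepatocellular carcinoma. miR-452 has been studied in the neural crest of the mouse. No role is given here for miR-3431.

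In the bosTau4 genome, mature miR-3431 was placed at chrX:21829475-21829496, mature miR-224 at chrX:21831401-21831423 and mature miR-452 at chrX:21832431-21832452, all on the minus strand. The gap between miR-3431 and miR-224 was 1904 bases and that between miR-224 and miR-452 was 1007 bases, so that the mature sequences together spanned 2978 bases. In the RefSeq annotation of a later assembly (ARS-UCD2.0), used here for names and neighbours only, all 3 matched a gene, their order was the same, and GABRE was the only other gene that spanned them. No other row of the count table, bovine or human, carried the name of a member, so each is represented by 1 mature arm.

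Relative to the other miRNA reads of a library, all 3 miRNAs were lower in plasma on Day 60 than on Day 0, by similar factors. They were lower together in the same 9 heifers. The fold-change on Day 60 over Day 0 was 0.703 for miR-224, 0.676 for miR-452 and 0.635 for miR-3431. All 3 passed the filter on low values that 195 of the 844 rows passed, and all 3 passed the test (edgeR's quasi-likelihood test with heifer as a block, false discovery rate, FDR, under 0.05 by Benjamini-Hochberg over the 195). miR-452 entered the test only through its level on Day 0, so its call is not equal support to those of miR-224 and miR-3431. The same test called 69 of the 195 miRNAs (35.4%), of which 35 were lower on Day 60 (17.9%) and 34 higher (17.4%). When reads were scaled to library totals in place of TMM factors, 68 were called and 57 of these were lower, and the median over all tested miRNAs stood at -0.25 on the log2 scale in place of -0.06.

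miR-224 was the most abundant of the 3. Its level, as its share of all miRNA reads of a library in RPMM (reads in 1e6), was 37.9 at the lowest, 58.1 at the median and 101.9 at the highest on Day 60, against 58.9, 100.3 and 166.3 RPMM on Day 0. The days overlapped, but on this scale 6 of the 11 Day 60 libraries lay below the lowest Day 0 library and 9 lay below the Day 0 median. With TMM scaling the overlap was larger, and fewer Day 60 libraries lay below the lowest of Day 0. On that scale the lowest, median and highest levels were 39.6, 70.3 and 106.7 on Day 60, against 58.4, 91.7 and 137.8 on Day 0. The mean was 66.4 ± 24.5 RPMM on Day 60 and 105.2 ± 28.5 RPMM on Day 0 (SD, n = 11 each). The log2 fold-change was -0.51 (SE 0.18, 95% interval -0.89 to -0.13, edgeR FDR = 0.0368), which is a level 29.7% lower on Day 60. It was lower in 9 of 11 heifers with TMM scaling, as were at least 9 of 11 for 24.1% of tested miRNAs, and in 10 of 11 on the RPMM scale, where 36.4% of tested miRNAs were lower in at least 9.

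miR-452 was the least abundant, and ranked 193 of 195 tested miRNAs by mean level. Day 60 libraries held 8.85 RPMM at the lowest, 19.4 at the median and 33.0 at the highest, against 17.6, 32.7 and 55.3 RPMM on Day 0. Here 4 of the 11 Day 60 libraries lay below every Day 0 library, 10 lay below the Day 0 median, and 5 Day 0 libraries lay above every Day 60 library. With TMM scaling fewer Day 60 libraries lay below every Day 0 library for miR-452, but neither of the other counts was smaller. It averaged 21.4 ± 8.52 RPMM on Day 60 and 35.4 ± 10.7 RPMM on Day 0 (SD, n = 11 each). Its log2 fold-change was -0.57 (SE 0.20, 95% interval -0.99 to -0.14, edgeR FDR = 0.0365), or 32.4% lower, with 9 of 11 heifers lower on either scale. It exceeded the 25 RPMM of the filter in 4 libraries of Day 60 and in 10 of Day 0, and with at least 10 reads in at least 11 libraries as the filter its FDR was 0.0814.

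miR-3431 had the largest fold-change of the 3 members. Its level was 20.5 RPMM at the lowest, 39.5 at the median and 65.1 at the highest on Day 60, against 35.6, 74.6 and 109.2 RPMM on Day 0. On this scale all 11 Day 60 libraries lay below the Day 0 median, and 7 Day 0 libraries lay above every Day 60 library. With TMM scaling the highest Day 60 level was 69.0, above the Day 0 median of 61.5, and fewer Day 0 libraries lay above every Day 60 library. The mean was 39.3 ± 13.4 RPMM on Day 60 and 70.5 ± 19.6 RPMM on Day 0 (SD, n = 11 each). The log2 fold-change was -0.66 (SE 0.22, 95% interval -1.11 to -0.20, edgeR FDR = 0.0292), or 36.5% lower, again with 9 of 11 heifers lower on either scale.

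**Figure D1:**
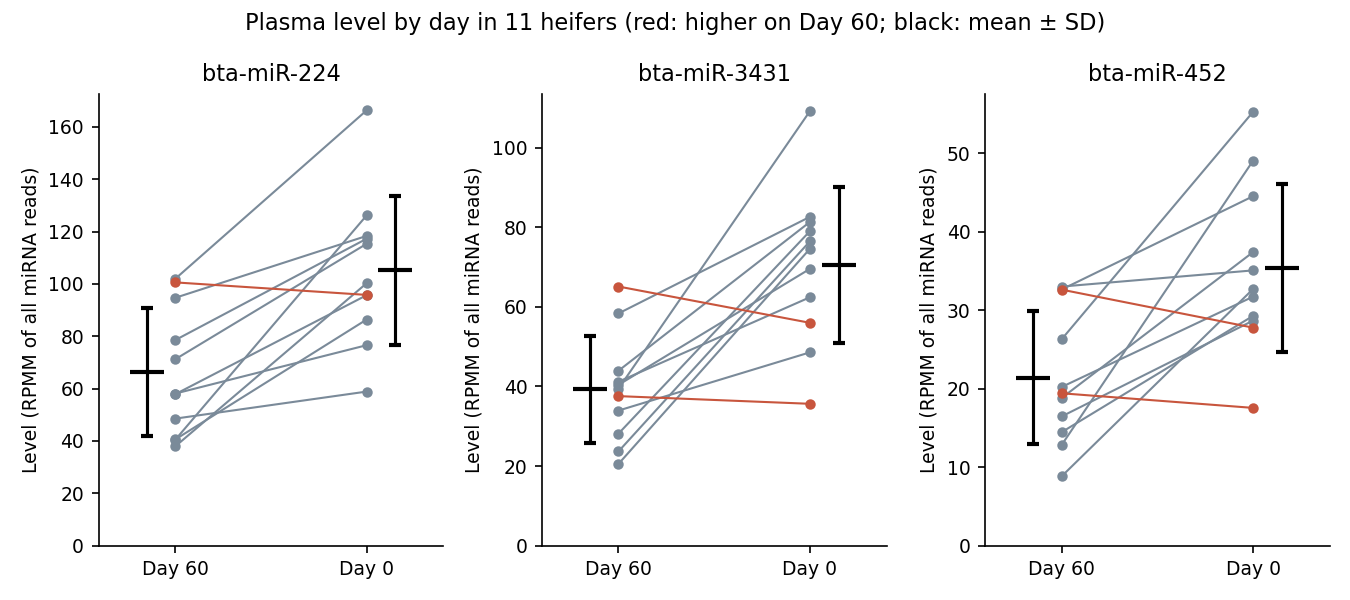
Level of miR-224, miR-3431 and miR-452 in RPMM of all miRNA reads (vertical axes, each from 0) on Day 60 and Day 0; each line joins the libraries of 1 heifer, red lines mark heifers with a higher value on Day 60, and black bars give the mean ± SD of 11 heifers. Day 60 libraries sat mostly below those of Day 0, with heifer 32 higher on Day 60 for all 3 and heifer 31 for miR-3431 and miR-452.

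The changes were moderate among those of plasma miRNAs. In the order of log2 fold-change over the 195 tested, miR-3431 was 32nd, miR-452 was 39th and miR-224 was 48th from the lowest, while the median miRNA was at -0.06. Among the 43 tested miRNAs whose mean level lay between those of miR-452 and miR-224 (28.4 to 85.8 RPMM, the members included), 8 were called lower and 3 higher, and their median on the log2 scale was -0.10. The members are 3 of those 8. The 95% intervals of the 3 members overlapped widely.

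**Figure D2:**
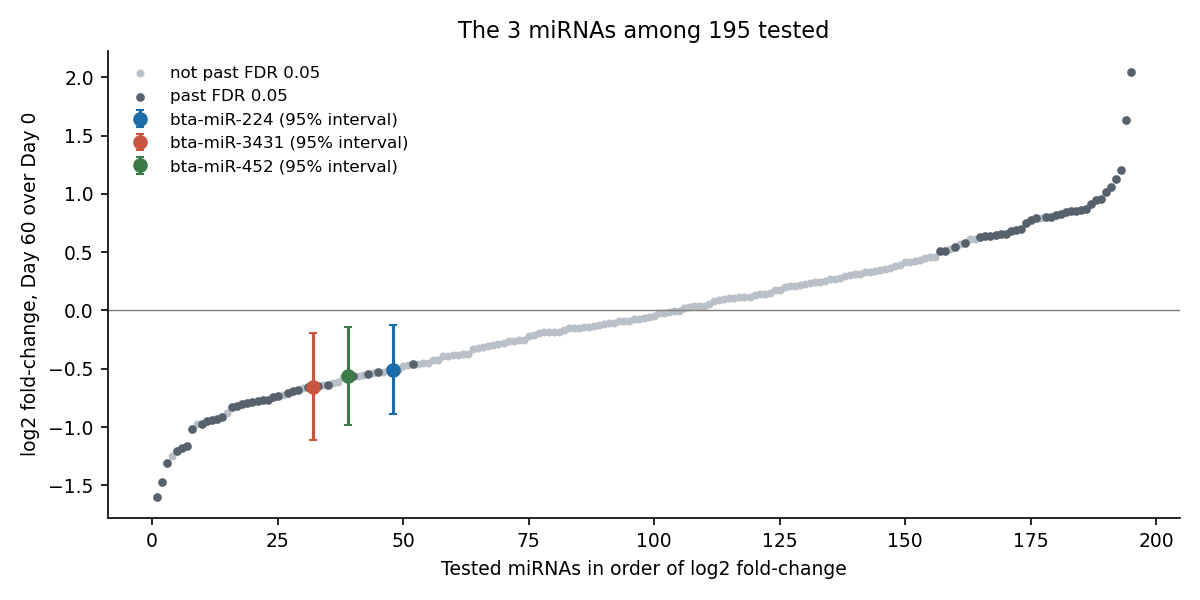
Log2 fold-change of Day 60 over Day 0 (vertical axis) of 195 tested miRNAs placed in order (horizontal axis), with dark points for those past FDR 0.05 and coloured points with 95% intervals for the 3 members. The members lay between -0.66 and -0.51, at places 32, 39 and 48 from the lowest.

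These calls lay near the threshold. The direction was negative in every fit run, but FDR exceeded 0.05 for all 3 when reads were scaled to miR-128 (0.110 for miR-224, 0.164 for miR-452 and 0.0989 for miR-3431) when the mean level of erythroid miRNAs was a covariate (0.124, 0.206 and 0.149 for the same miRNAs), with no filter (0.301, 0.258 and 0.163) and with at least 10 reads in at least 11 libraries as the filter (0.0680, 0.0814 and 0.0531), and it did so without any one of heifers 10, 11, 28 or 29. On Day 60 heifer 17 gave few miRNA reads, 304117 in all, of which 31 were miR-224, 8 were miR-452 and 12 were miR-3431, and without that heifer FDR was 0.0485 for miR-224, 0.0588 for miR-452 and 0.0518 for miR-3431.

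Other libraries held many more reads of the members. Total miRNA reads per library were 304117 to 12775451 on Day 60 (median 7597827) and 1912290 to 6839128 on Day 0 (median 4536808). Reads of miR-224 per library were 31 to 811 on Day 60 and 183 to 863 on Day 0. For miR-452 they were 8 to 263 on Day 60 and 56 to 217 on Day 0, and for miR-3431 they were 12 to 525 on Day 60 and 132 to 523 on Day 0. In the shallow library of heifer 17 the 95% Wilson interval was 71.8 to 144.7 RPMM for miR-224 and 13.3 to 51.9 RPMM for miR-452. These intervals cover counting error only, since the reads carry no molecular identifiers.

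The spread between heifers is given beside that of counting. The coefficient of variation (CV, SD over mean) of miR-224 was 36.9% on Day 60 and 27.1% on Day 0, where counting error alone would give 7.61% and 5.31%. For miR-452 the CV was 39.8% on Day 60 and 30.3% on Day 0, with 14.3% and 9.12% from counting. For miR-3431 it was 34.2% on Day 60 and 27.9% on Day 0, with 11.1% and 6.41% from counting. These are close to the median CV of the 43 miRNAs of like level, which was 40.9% on Day 60 and 28.3% on Day 0, and the members took places 14 to 21 from the lowest of the 43 on Day 60 and 19 to 28 on Day 0. A larger CV on Day 60 was also seen in that median, and no test of it was run.

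Within a heifer, the 3 members moved in the same direction. With TMM scaling all 3 were lower on Day 60 in heifers 10, 11, 12, 14, 17, 24, 26, 28 and 29, and all 3 were higher in heifers 31 and 32. No heifer was mixed on this scale. On the RPMM scale heifer 31 was mixed, with log2 changes of -0.27 for miR-224, 0.14 for miR-452 and 0.07 for miR-3431.

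With TMM scaling heifer 11 had the largest change of miR-224 and of miR-3431, while on the RPMM scale that of miR-3431 was larger in heifer 10 (-1.81) than in heifer 11 (-1.65). On the log2 scale of TMM-scaled reads in 1e6 plus 1, its changes were -1.77 for miR-224 and -1.81 for miR-3431, but -0.78 for miR-452. In heifer 29, miR-452 changed the most of the 3, by -1.57, beside -1.17 for miR-3431 and -0.78 for miR-224. Heifer 10 had changes of -1.01 for miR-224, -1.41 for miR-452 and -1.44 for miR-3431. The 2 heifers in which the members were higher had small changes, of 0.14 to 0.54 in heifer 31 and 0.22 to 0.37 in heifer 32. In heifer 31 the median tested miRNA changed by -0.13 and 57.4% of the tested miRNAs were lower on Day 60, so its members went against most of that pair of libraries.

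**Figure D3:**
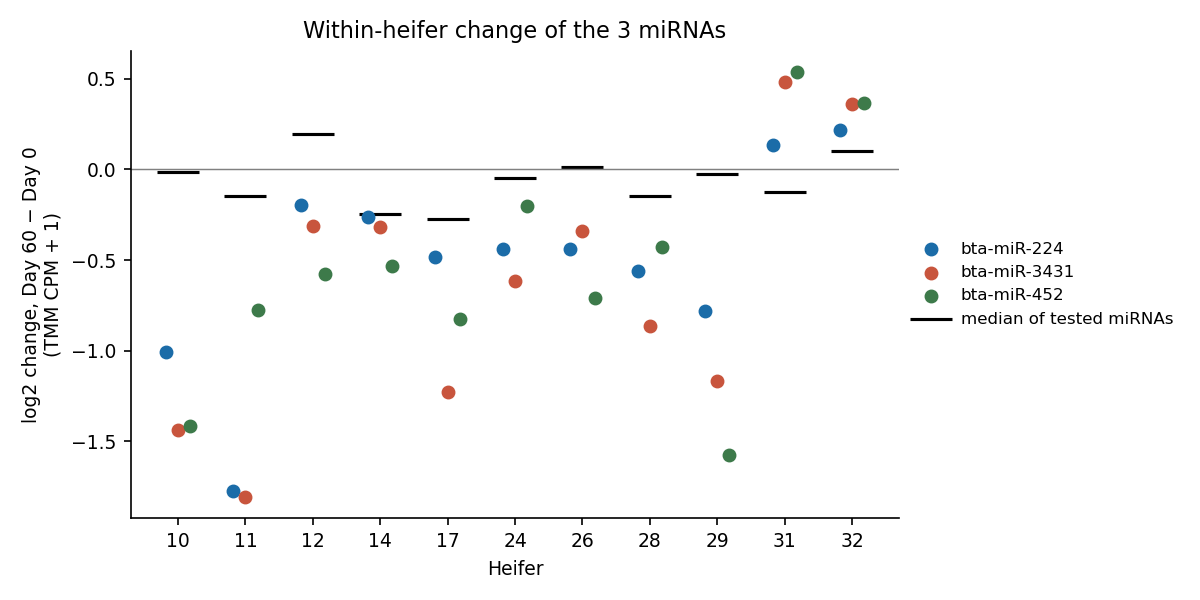
Change of each member within each of 11 heifers (horizontal axis), as log2 of TMM-scaled reads in 1e6 plus 1 on Day 60 minus Day 0 (vertical axis); black bars give the median change of the 195 tested miRNAs in that heifer. All 3 members were below 0 in 9 heifers and above 0 in heifers 31 and 32.

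The size of the change in one member went with that in the others across heifers. Pearson's r between the within-heifer changes of miR-224 and miR-3431 was 0.920 (n = 11, permutation p = 1e-05, the smallest that 100000 permutations can give, adjusted p = 3e-05 over 3 pairs), and Spearman's rho was 0.964 (permutation p = 4e-05). Without heifers 32 and 11, the farthest from the median, r was 0.926. Of the 194 other tested miRNAs, each of these 2 was the one whose changes were most like those of the other. For comparison, the median r of miR-224 with the rest of those 194, miR-3431 left out, was 0.094.

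The r of miR-452 with the other members was lower, and no test of that difference was run. Its r with miR-3431 was 0.804 (permutation p = 0.00326, adjusted p = 0.00489, rho 0.773 with permutation p = 0.00722), and 0.826 without heifers 31 and 11. Its r with miR-224 was 0.668 (permutation p = 0.0249, adjusted p = 0.0249, rho 0.736 with permutation p = 0.0123), and 0.875 without heifers 32 and 11. This last correlation was 0.904 without heifer 11 alone, but missed the threshold without heifer 10 (r = 0.626, permutation p = 0.0616), heifer 31 (r = 0.590, permutation p = 0.0752) or heifer 32 (r = 0.581, permutation p = 0.0855). Among the 194 others, miR-452 was 25th in likeness of changes to miR-224 and 20th to miR-3431, while miR-224 was 21st and miR-3431 was 8th for miR-452. All points of these correlations share the scaling of their libraries.

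**Figure D4:**
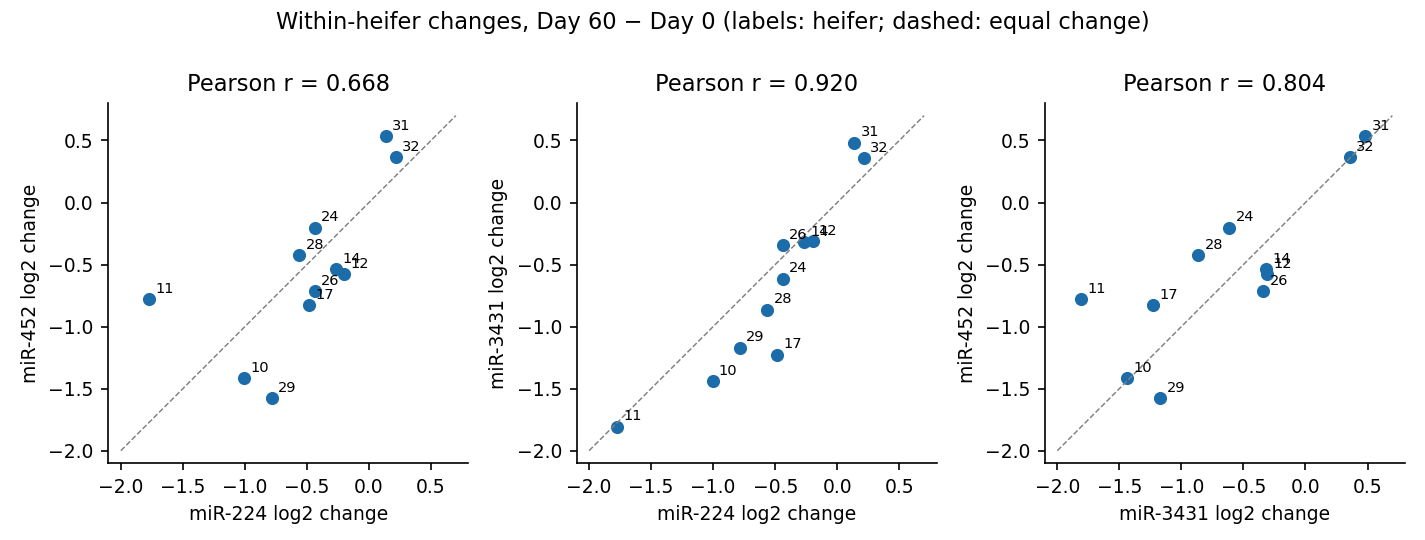
Within-heifer log2 change of one member (vertical axis) against that of another (horizontal axis) for the 3 pairs, with 1 point per heifer and a dashed line of equal change. The points of miR-224 and miR-3431 lay close to a line (r = 0.920), and heifer 11 stood away from the others in the pair of miR-224 and miR-452 (r = 0.668).

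The members also varied together among heifers on 1 day, a comparison chosen after the data were seen. Between miR-224 and miR-3431, r of the log2 levels was 0.864 over the 11 Day 60 libraries (permutation p = 0.00061, adjusted p = 0.00176 over 6 relations) and 0.870 over the 11 Day 0 libraries (permutation p = 0.00042, adjusted p = 0.00176). Spearman's rho for this pair was 0.773 on Day 60 (permutation p = 0.00753) and 0.827 on Day 0 (permutation p = 0.00271). Without the 2 libraries farthest from the median, r was 0.670 on Day 60 and 0.760 on Day 0. The pairs with miR-452 had r of 0.788 with miR-224 and 0.765 with miR-3431 on Day 60, and 0.723 with miR-224 and 0.866 with miR-3431 on Day 0. By rank the pair of miR-452 and miR-224 was weaker on Day 0, with a rho of 0.464 (permutation p = 0.155), against a rho of 0.736 on Day 60 (permutation p = 0.0127). The pair of miR-452 and miR-3431 had a rho of 0.618 on Day 0 (permutation p = 0.0475, adjusted p = 0.0570 over 6 relations) and 0.736 on Day 60 (permutation p = 0.0126). Without the 2 libraries farthest from the median, r of that pair was 0.695 on Day 0 and 0.702 on Day 60.

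Relative amounts of the 3 members were compared within libraries, where scaling has no part. Reads were most numerous for miR-224, then miR-3431, then miR-452, in all 11 libraries of Day 60 and all 11 of Day 0. miR-224 made up 52.0 ± 4.08% of the reads of the cluster on Day 60 and 50.0 ± 3.83% on Day 0, miR-3431 made up 31.2 ± 3.63% on Day 60 and 33.3 ± 2.39% on Day 0, and miR-452 made up 16.8 ± 3.36% on Day 60 and 16.8 ± 2.54% on Day 0 (SD, n = 11 each). The reads of each mature miRNA also depend on how well its ends are ligated in library preparation, so this order is one of reads and may not be one of molecules.

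No ratio between members differed between the days beyond its spread. The ratio of miR-452 to miR-224 had a median of 0.318 on Day 60 and 0.325 on Day 0, a mean log2 change within heifers of -0.05 (95% interval -0.39 to 0.28, exact sign-flip permutation p = 0.718, two-sided, adjusted p = 0.718 over 3 pairs). The ratio of miR-3431 to miR-224 had a median of 0.588 on Day 60 and 0.657 on Day 0, was lower in 8 of 11 heifers and changed by -0.15 (95% interval -0.35 to 0.05, exact p = 0.126, adjusted p = 0.378). For miR-452 over miR-3431 the medians were 0.502 on Day 60 and 0.497 on Day 0, and the change was 0.10 (95% interval -0.21 to 0.40, exact p = 0.517, adjusted p = 0.718). As ratios of Day 60 over Day 0, these intervals ran 0.761 to 1.22 for miR-452 over miR-224, 0.784 to 1.04 for miR-3431 over miR-224 and 0.866 to 1.32 for miR-452 over miR-3431.

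The summed level of the cluster was 67.3 RPMM at the lowest, 112.7 at the median and 198.3 at the highest on Day 60, against 112.1, 214.5 and 330.8 RPMM on Day 0. The mean was 127.1 ± 44.1 RPMM on Day 60 and 211.0 ± 55.6 RPMM on Day 0 (SD, n = 11 each).

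The miRNAs most like each member were sought over all 22 libraries, as Pearson's r of log2 levels after the mean of each day was taken away. This is a description with no test, and its points share library scaling and come in pairs from 11 heifers. For miR-224 the most alike of 194 were miR-3431 (r = 0.866) and miR-452 (0.763), then miR-214 (0.715), miR-497 (0.653) and miR-140 (0.648), while the median was 0.061. For miR-3431 they were miR-224 (0.866), miR-452 (0.804), miR-214 (0.801), miR-450a (0.741) and miR-100 (0.726). For miR-452 the first were miR-497 (0.842) and miR-154c (0.812), ahead of miR-3431 (0.804), followed by miR-380-3p (0.768) and miR-214 (0.767), with miR-224 sixth (0.763).

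Several of these other miRNAs lie on other chromosomes. miR-214 is on chromosome 16 in the files and was the one that all 3 members had among their most alike 5 other than cluster members. On Day 60 over Day 0 it had a log2 value of -0.72 (SE 0.28, edgeR FDR = 0.0554). miR-154c and miR-380-3p are both on chromosome 21 and were called lower on Day 60, with log2 fold-changes of -0.69 (SE 0.19, edgeR FDR = 0.0144) and -0.64 (SE 0.21, edgeR FDR = 0.0279). miR-497 on chromosome 19, the closest to miR-452, had -0.28 (SE 0.19, edgeR FDR = 0.236).

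Likeness of the 3 members was in the range seen for neighbouring miRNAs. Among tested bovine miRNAs there were 74 pairs on the same strand less than 10000 bases apart, whose median r was 0.638 (range -0.60 to 0.94), against a median of 0.005 over all 18145 pairs. The 74 include the 3 pairs of members, and also pairs made of both arms of the same precursor, such as miR-126-3p and miR-126-5p. By r the 3 pairs of members were 10th, 20th and 27th of the 74. Their log2 fold-changes differed by 0.147 (miR-224 and miR-3431), 0.090 (miR-452 and miR-3431) and 0.057 (miR-224 and miR-452), against a median difference of 0.376 over the 74 pairs.

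Values of the other miRNAs of chromosome X are given for comparison. Of the 37 others that the files place on this chromosome 13 were tested, of which 4 were called higher on Day 60 and 0 lower, beside 17.4% higher and 17.9% lower over all tested miRNAs, and their median on the log2 scale was -0.11. At an unadjusted p under 0.05, 2 of the 13 were lower, miR-1468 (-0.53, SE 0.21, edgeR FDR = 0.0553) and miR-660 (-0.43, SE 0.17, edgeR FDR = 0.0670). DESeq2 and limma-voom each called 1 of the 13 lower, miR-1468. The 4 called higher were miR-98 (0.91, SE 0.22, edgeR FDR = 0.0108) and its neighbour let-7f (0.86, SE 0.29, edgeR FDR = 0.0334), both of the let-7 family, and miR-374a (0.65, SE 0.19, edgeR FDR = 0.0220) and miR-374b (0.84, SE 0.29, edgeR FDR = 0.0334). The study also lists a let-7f gene in a cluster on another chromosome, so the reads of let-7f cannot be assigned to chromosome X alone. In the edgeR test the members were the only miRNAs placed on chromosome X that were called lower. A list of 9 miRNAs of other X clusters had 5 tested, with 1 called higher (miR-98) and 2 called lower, miR-450a (-0.53, SE 0.18, edgeR FDR = 0.0334) and miR-450b (-0.74, SE 0.23, edgeR FDR = 0.0220), both of which bosTau4 holds on an unplaced contig. The study lists both in a cluster on chromosome X, so being called lower on that chromosome is not particular to the members. With so few tested, no difference of either set from all tested miRNAs is read from these counts.

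A second set of bovine miRNAs, described after its values were seen, lies in another GABA-A receptor gene of chromosome X. miR-105a, miR-105b and miR-767 are spanned by GABRA3, which encodes the alpha-3 subunit of the same receptor, in the RefSeq annotation. None of the 3 passed the filter, with 71, 5 and 285 reads over the 22 libraries. miR-105a had 10 reads on Day 60 and 61 on Day 0, of which 21 came from 1 library, that of heifer 11. Its level was 0 RPMM at the lowest, 0.107 at the median and 0.532 at the highest on Day 60, against 0.297, 1.05 and 3.07 RPMM on Day 0. The level of miR-105a was lower on Day 60 in 11 of 11 heifers, where 36.4% of tested miRNAs were lower in at least 9 on the RPMM scale. In 5 Day 60 libraries it had 0 reads, which allows up to 0.235 to 9.86 RPMM (3 reads per library), with the largest of these limits, above every Day 0 level, in the shallow library of heifer 17.

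In the fit without a filter, over 844 rows, the value of miR-105a on the log2 scale was -2.69 (SE 0.56, edgeR FDR = 0.00599). In that fit miR-767 had -0.81 (SE 0.33, edgeR FDR = 0.157), with 1.33 RPMM at the median on Day 60 and 4.41 on Day 0. The level of miR-767 was lower in 10 of 11 heifers on the RPMM scale and in 9 with TMM scaling. Of tested miRNAs, 36.4% were lower in at least 9 heifers on the RPMM scale and 24.1% with TMM scaling. None of the 3 members of the GABRE cluster was called in it, with FDR of 0.301 for miR-224, 0.258 for miR-452 and 0.163 for miR-3431. That fit called 54 of the 844 rows, and 17 of these were lower on Day 60. With so few rows called lower, no difference between the members and all rows is read from this.

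miRNAs of red and white blood cells were called higher on Day 60 or not at all. Of 6 erythroid miRNAs, 2 were called higher on Day 60 and 0 lower (median 0.57 on the log2 scale), among them miR-451, the most specific of red cells (0.79, SE 0.29, edgeR FDR = 0.0425), and 0 were lower at an unadjusted p under 0.05 or by DESeq2 or limma-voom. Their summed level was 134033 to 388765 RPMM on Day 60 and 74510 to 346917 RPMM on Day 0, and all 6 were found in every library. Of 6 leukocyte miRNAs 3 were called higher and 0 lower (median 0.59), led by miR-155 (1.21, SE 0.25, edgeR FDR = 0.00837), an inducible miRNA of lymphocytes and macrophages, and 0 were lower at an unadjusted p under 0.05 or by DESeq2 or limma-voom. On the same list miR-223 had a negative value and was not called (-0.19, SE 0.18, edgeR FDR = 0.418). Over all tested miRNAs 17.4% were called higher and 17.9% lower. Of 4 tested platelet and 2 tested hepatocyte miRNAs 0 were called in either direction, with medians of -0.15 and -0.12, and 0 were lower at an unadjusted p under 0.05. The platelet miRNA miR-199a-3p and the hepatocyte miRNAs miR-122 and miR-885 did not pass the filter. Of these, miR-122 averaged 2121.6 RPMM on Day 60 and 50.1 RPMM on Day 0, but with TMM scaling it was higher in 6 heifers and lower in 5. The counts above therefore do not cover miR-122. With the erythroid level of each library as a covariate the log2 fold-changes of the members were -0.54 for miR-224, -0.48 for miR-452 and -0.61 for miR-3431. That fit called 0 of 195 miRNAs lower and 6 higher, with 23 lower at an unadjusted p under 0.05. The part of the leukocyte miRNAs in the result was not tested.

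**Figure D5:**
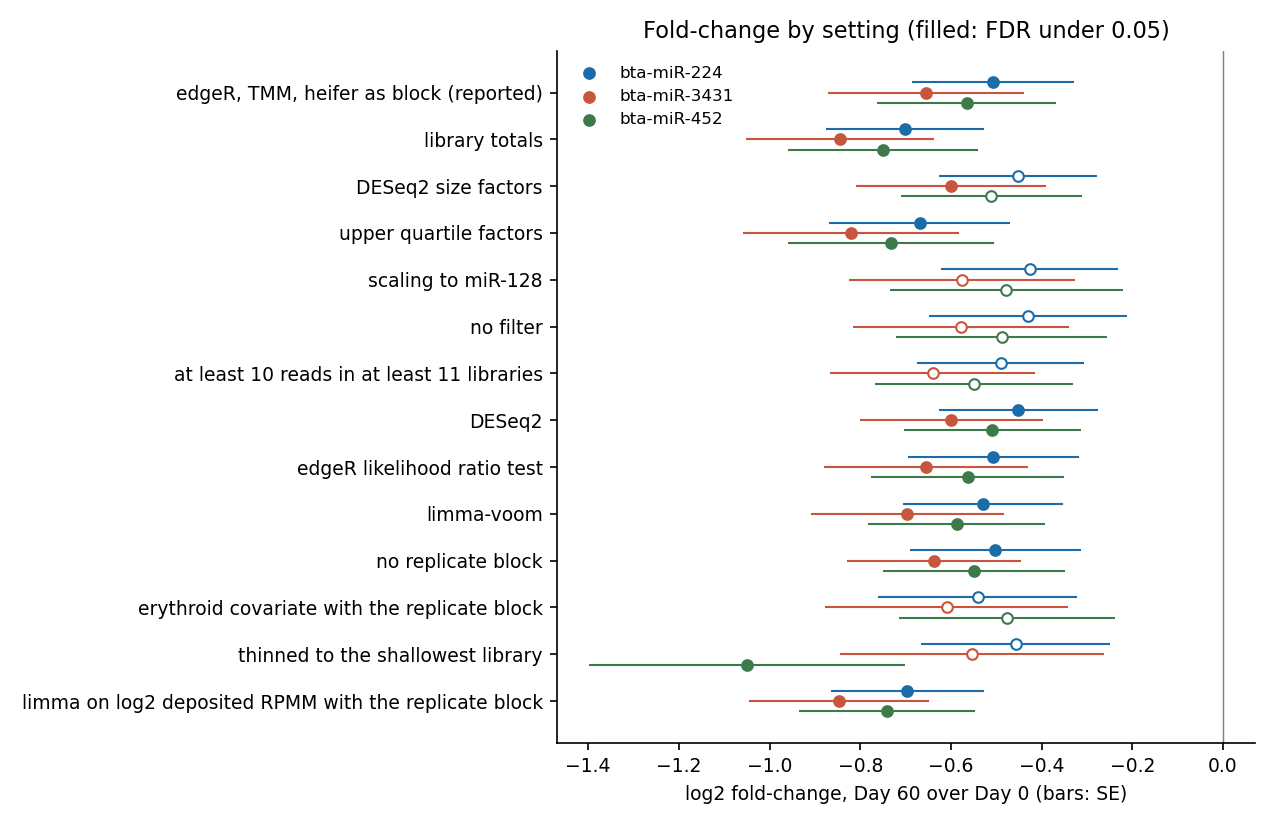
Log2 fold-change of Day 60 over Day 0 (horizontal axis, bars give the SE) of the 3 members under the reported fit and 13 other settings; filled points had FDR under 0.05 and open points did not. Every point lay below 0, between -1.05 and -0.43.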

How the data were processed

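RNA of plasma was made into TruSeq Small RNA libraries, and the authors matched reads to mature miRNAs of miRBase on bosTau4 with sRNAbench and Bowtie 0.12.9, allowing 1 mismatch. The authors deposited read counts for each mature miRNA, and RPMM values that rest on separate totals for bovine and human rows. The RPMM printed here use all miRNA reads of a library, and differ from those deposited for the members by at most 0.333%. Groups are the days, and the labels give the animal of each library, which pairs them. Libraries of 1 animal correlated, as deviations from day means, at a mean of 0.141, against -0.00628 for other animals. The best match was the library of the same animal for only 5 of 11 heifers, so the pairing rests on the labels.

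Counts were tested with edgeR 4.0.16 (R 4.3.3; quasi-likelihood, TMM, heifer as block) where a miRNA exceeded 25 RPMM in more than 8 libraries on at least 1 day. Ratios within libraries used reads plus 1 and an exact sign-flip test over 2048 patterns, and correlations 100000 permutations. Alternatives used limma 3.58.1 and DESeq2 1.42.0, other scalings, filters, a common depth and each heifer left out. Scripts ran in Python 3.11.15 with pandas 2.3.3, scipy 1.17.1, numpy 2.4.6 and, for plots, matplotlib 3.10.9. The named miRNAs were all members, the 5 most like each, up to 4 per list with the smallest p and other miRNAs of chromosome X; those placed in GABRA3 and those named at an unadjusted p were described after their values were seen. Members and the 6 lists were chosen with earlier results of these data known. Sequences were not used here.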

Additional observations from a re-analysis of the deposited data

How the results depend on the processing

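All 3 members kept their negative direction under every alternative run, and their FDR exceeded 0.05 under some. DESeq2 size factors gave -0.45 for miR-224 (edgeR FDR = 0.0550) and -0.51 for miR-452 (FDR = 0.0563), but -0.60 for miR-3431 (FDR = 0.0377). In the order miR-224, miR-452 and miR-3431, scaling to miR-128 gave -0.43, -0.48 and -0.58, no filter gave -0.43, -0.49 and -0.58, at least 10 reads in at least 11 libraries gave -0.49, -0.55 and -0.64 (FDR 0.0680, 0.0814 and 0.0531), and the erythroid covariate with the heifer block gave -0.54, -0.48 and -0.61. Thinning every library to the depth of the shallowest gave -0.46 (FDR = 0.102), -1.05 (FDR = 0.0352) and -0.55 (FDR = 0.155), where miR-452 moved by more than 1.5 times. Library totals gave -0.70, -0.75 and -0.85, which relative to the median of all miRNAs were -0.45, -0.50 and -0.60. DESeq2, edgeR's likelihood ratio test, limma-voom and limma on the deposited RPMM called all 3. Of all 195 tested miRNAs, DESeq2 called 85 (43 lower), the likelihood ratio test 76 (41 lower) and limma-voom 73 (39 lower), against 69 (35 lower) in the reported fit. Without the heifer block the log2 fold-changes of the members were -0.50, -0.55 and -0.64, all still called, so the block changed no call of a member. That fit called 83 of the 195 miRNAs, 42 of them lower.

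Leaving out 1 heifer gave -0.59 to -0.38 for miR-224, -0.68 to -0.47 for miR-452 and -0.77 to -0.54 for miR-3431, with unadjusted p of at most 0.0283, 0.0389 and 0.0212. FDR exceeded 0.05 without 5 of 11 heifers for miR-224 (10, 11, 26, 28 and 29), 8 of 11 for miR-452 (10, 11, 12, 14, 17, 26, 28 and 29) and 5 of 11 for miR-3431 (10, 11, 17, 28 and 29). The count of miRNAs called was 36 to 98 without 1 heifer (42 without heifer 10, 38 without 11, 36 without 28 and 43 without 29) and 6 with the erythroid covariate. The count called lower was 16 to 57 without 1 heifer (16 without 11, 19 without 28, 23 without 29 and 57 without 32), 57 with library totals, 58 with upper quartile factors, 20 with scaling to miR-128, 17 with no filter and 0 with the erythroid covariate. The ratio of miR-452 to miR-224 changed sign to 0.024 without heifer 29 (range -0.16 to 0.024), and that of miR-452 to miR-3431 to -0.40 after thinning. The correlation of miR-452 with miR-224 was 0.581 to 0.904 without 1 heifer. The CV of miR-224 on Day 60 was 31.9% with TMM scaling. The cause of these differences was not tested. Depth limits miR-452 in the Day 60 library of heifer 17, which held 8 of its reads.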
